A study of Mus musculus with 20 samples.

Results

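The cathepsin proteases described here are 10 genes, Ctsa, Ctsb, Ctsc, Ctsd, Ctsf, Ctsh, Ctsk, Ctsl, Ctss and Ctsz, chosen by symbol from the 24421 genes in the count files of 20 mouse macrophage libraries. All 10 passed the filter on low counts, which left 13960 genes. The libraries were made from total RNA of C57BL/6JRj mice, with 4 libraries in each of 5 populations: peritoneal macrophages, choroid plexus macrophages, dura macrophages with high MHC class II (MHC II-high), dura macrophages with low MHC class II (MHC II-low) and microglia. The choroid plexus and dura populations are called border populations below. The second dura population is called "int" in the titles and "lo" in the cell type label. No treatment or genetic change is stated for any group. The labels do not say how the cells were isolated, their age, or whether replicates are separate animals, so p-values measure only the spread between these libraries, which may be technical.

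Cathepsins are proteases of the endosome and lysosome. They are made as inactive precursors, carried there by sorting receptors and activated by cleavage at acidic pH. Most belong to the papain family of cysteine proteases, cathepsin D is an aspartic protease and cathepsin A a serine carboxypeptidase. In macrophages and microglia they degrade engulfed and recycled proteins, and cathepsin S trims the invariant chain from MHC class II molecules in antigen-presenting cells.

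Gene counts per library came to 23532894–27948494 in peritoneal macrophages, 13383274–16052955 in choroid plexus macrophages, 22203235–32611875 in dura MHC II-high macrophages, 26312505–30398564 in dura MHC II-low macrophages and 15312617–17156227 in microglia. Levels are given in CPM, counts scaled to library size after TMM adjustment. The defining markers of microglia and of large peritoneal macrophages lay highest in the populations whose labels name them, and those of border macrophages in the dura and choroid plexus populations. The 5 genes on the MHC class II list summed to 43734–61593 CPM in choroid plexus macrophages, 52638–59097 CPM in dura MHC II-high macrophages and 2099–2327 CPM in dura MHC II-low macrophages. Monocyte markers, mostly Ccr2, summed to 1068–1259 CPM in dura MHC II-high macrophages and to at most 213 CPM elsewhere, and their part in the levels below was not tested. Microglia replicate 3 stood apart. Its 8 choroid plexus epithelium markers summed to 20150.0 CPM, against 65.3, 709 and 327 CPM in microglia replicates 1, 4 and 5 and 3929.7–7415 CPM in choroid plexus macrophages. In choroid plexus replicate 4 the 6 fibroblast markers summed to 968 CPM, against 286–400.4 CPM in the other choroid plexus libraries. Log2 fold changes of the cathepsins against microglia and counts over gene lists are therefore also given without microglia replicate 3, and those of Ctsk also without choroid plexus replicate 4. In these bulk samples, fewer cells of a type and less RNA per cell cannot be told apart.

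Taken as a pool, the 10 cathepsins made up 1.46% ± 0.09 of gene counts in peritoneal macrophages, 1.95% ± 0.03 in choroid plexus macrophages, 2.01% ± 0.12 in dura MHC II-high macrophages, 2.42% ± 0.10 in dura MHC II-low macrophages and 3.44% ± 0.27 in microglia (SD, n = 4 each). The 4 microglia libraries, at 3.07–3.69%, lay above all the others, and the 4 peritoneal libraries, at 1.36–1.58%, lay below all the others. The microglia share without replicate 3 was 3.56% ± 0.16 (SD, n = 3). No test was run on these sums. They depend much on Ctsd, which averaged 17440 CPM in microglia and 1966–4654 CPM in the other populations. The level of Ctsd is uncertain, since part of its exon length is shared with another gene, as described below. Ctsb and Ctsc had their lowest means in microglia, so the order of the pool does not hold for each gene. The share without Ctsd was not computed. Divided by exon length, which allows genes to be compared, Ctsd led in peritoneal macrophages with 39.8% ± 3.3 of the summed CPM per kilobase, in dura MHC II-low macrophages with 26.3% ± 2.3 and in microglia with 50.1% ± 2.1 (SD, n = 4 each). Ctss led in choroid plexus macrophages with 49.3% ± 0.8 and in dura MHC II-high macrophages with 40.2% ± 3.2 (SD, n = 4 each). With the longest transcript as the length, Ctsb at 24.2% stood just ahead of Ctsd at 24.0% in dura MHC II-low macrophages, and the leading gene was the same in the other 4 populations. Ctsf, Ctsl and Ctsk each stayed at or under 1.22% of the pool per kilobase in every population.

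**Figure D1:**
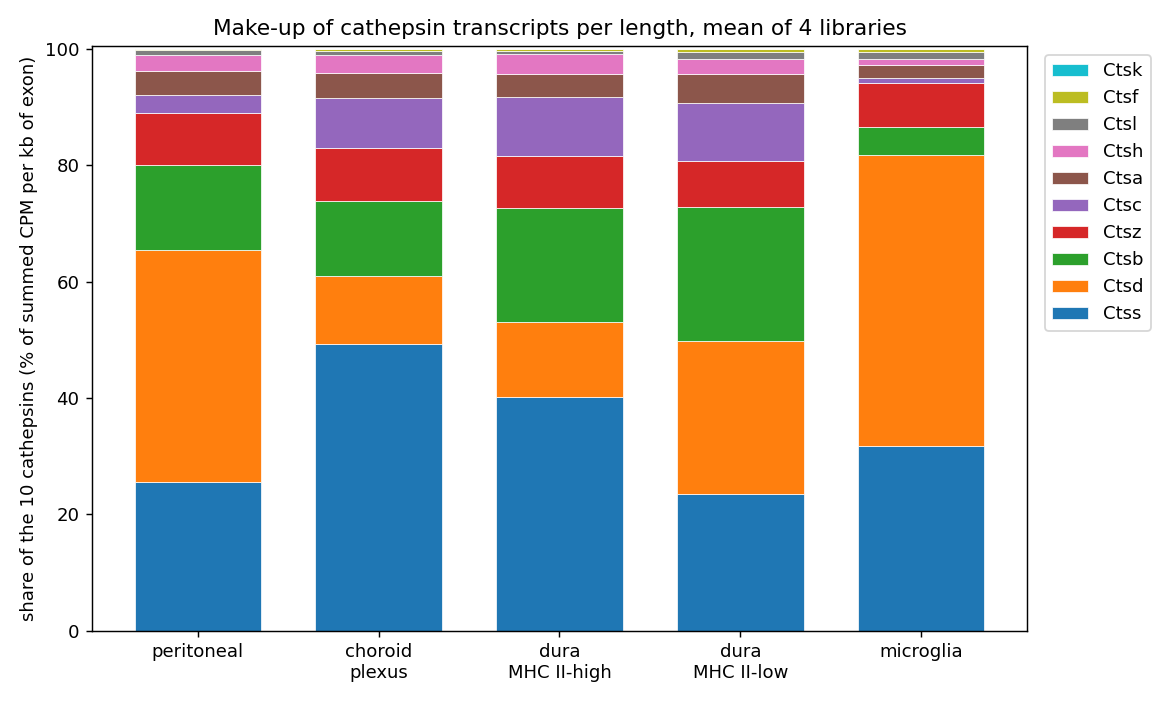
Stacked bars show the mean share of each gene in the summed CPM per kilobase of exon of the 10 cathepsins (vertical axis, percent) for the 5 populations (horizontal axis, 4 libraries each). Ctsd fills 50.1% of the microglia bar and Ctss 49.3% of the choroid plexus bar.

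Calls required a difference of at least 2-fold together with an adjusted p below 0.05 in edgeR's quasi-likelihood test. Log2 fold changes put the population named first on top, and the value after ± is a standard error. Of the 10 cathepsins, 8 were called in at least 1 of 10 pairwise comparisons, as were 59.1% of all tested genes. Ctsa and Ctsh were called in none. Ctsd was called in 8 comparisons, Ctsf in 7, Ctsc and Ctsk in 6, Ctsl and Ctss in 5, and Ctsb and Ctsz in 2. The comparisons share libraries, so these counts are not independent of each other.

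Between peritoneal macrophages and microglia 6 cathepsins were called, all lower in peritoneal macrophages (Ctsd, Ctsf, Ctsk, Ctsl, Ctss and Ctsz), beside 44.6% of all genes called in either direction and 25.7% called lower. The median log2 fold change of the 10 was -1.59, and that of all tested genes -0.11. Peritoneal against choroid plexus macrophages gave 5 calls (36.7% of all genes), with Ctsd higher and Ctsc, Ctsf, Ctsk and Ctss lower in peritoneal macrophages. The median there was -0.65 for the 10 and -0.13 for all genes. Peritoneal against dura MHC II-high macrophages gave the same 5 genes in the same directions (29.2% of all genes), with medians of -0.72 and -0.10. Peritoneal against dura MHC II-low macrophages gave 4 calls (31.9% of all genes), with Ctsb, Ctsc, Ctsf and Ctsk lower in peritoneal macrophages and medians of -0.81 and -0.11.

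Dura MHC II-low macrophages against microglia had 8 cathepsins called (26.5% of all genes). Ctsb, Ctsc and Ctsk were higher and Ctsd, Ctsf, Ctsl, Ctss and Ctsz lower in dura MHC II-low macrophages, with medians of -0.51 for the 10 and 0.02 for all genes. Choroid plexus macrophages against microglia had 5 (19.2% of all genes), with Ctsc and Ctsk higher and Ctsd, Ctsf and Ctsl lower in choroid plexus macrophages (medians -0.27 and 0.09). Dura MHC II-high macrophages against microglia had 4 (27.9% of all genes), with Ctsc higher and Ctsd, Ctsf and Ctsl lower in dura MHC II-high macrophages (medians -0.60 and 0.02). Choroid plexus against dura MHC II-low macrophages had 2 (12.8% of all genes), with Ctss higher and Ctsd lower in choroid plexus macrophages (medians -0.13 and 0.01). The 2 dura populations differed in 2 cathepsins (3.88% of all genes), Ctsd and Ctsl, both lower in dura MHC II-high macrophages, as were 1.48% of all genes (medians -0.34 and 0.02). Choroid plexus against dura MHC II-high macrophages had 0 (9.88% of all genes). The unadjusted p was under 0.05 for 5 cathepsins in edgeR, but the share of all genes at that threshold was not computed. An adjusted p below 0.05 alone was met by 3 cathepsins, beside 26.3% of all genes. DESeq2 also called 0.

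Many differences between populations were smaller than 2-fold. With an adjusted p below 0.05 in edgeR as the only requirement, 9 cathepsins differed between peritoneal and choroid plexus macrophages (62.8% of all genes), 9 between peritoneal and dura MHC II-high macrophages (54.3%) and 7 between peritoneal and dura MHC II-low macrophages (57.6%). Against microglia, 7 differed in peritoneal macrophages (69.3% of all genes), 8 in choroid plexus macrophages (42.4%), 9 in dura MHC II-high macrophages (53.5%) and 9 in dura MHC II-low macrophages (51.0%). Choroid plexus macrophages differed in 3 from dura MHC II-high macrophages (26.3% of all genes) and in 5 from dura MHC II-low macrophages (29.2%). The 2 dura populations differed in 6, Ctsa, Ctsb, Ctsd, Ctsf, Ctsl and Ctss, beside 11.0% of all genes. Of these, Ctss was the 1 that stood higher in dura MHC II-high macrophages.

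**Figure D2:**
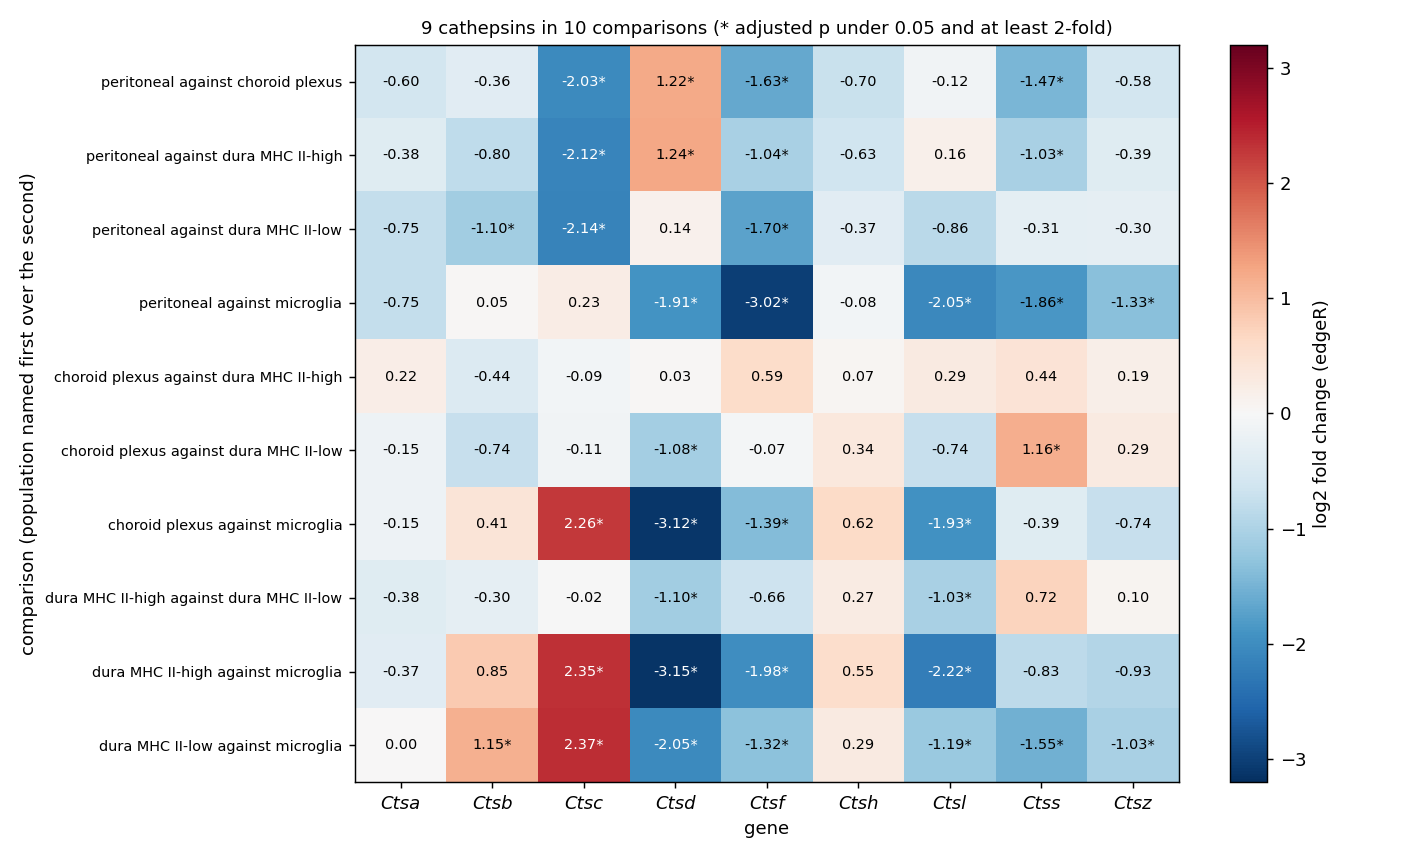
Each cell gives the edgeR log2 fold change of 1 gene (horizontal axis) in 1 comparison (vertical axis, the population named first on top). An asterisk marks an adjusted p under 0.05 with at least a 2-fold difference, and Ctsk is left out because peritoneal macrophages had 3 counts of it in all. Ctsd, Ctsf and Ctsl are negative and marked in all 4 comparisons with microglia.

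Ctsd, Ctsf and Ctsl were each called higher in microglia than in every other population, a pattern that 4.04% of all tested genes met. Ctsf and Ctsk were each called lower in peritoneal macrophages than in every other population, as were 12.2% of all tested genes. Without microglia replicate 3 the calls of Ctsd, Ctsf and Ctsl against microglia all held, and that of Ctsk for peritoneal macrophages against microglia was lost (log2 -2.71, adjusted p = 0.118, edgeR). The pattern of Ctsf also rests on its call for peritoneal against dura MHC II-high macrophages, which was lost without peritoneal replicate 1 (-0.94), peritoneal replicate 3 (-0.99), peritoneal replicate 4 (-0.98) or dura MHC II-high replicate 3 (-0.89). Over all 10 cathepsins, leaving out microglia replicate 3 gave 5 calls against microglia in peritoneal macrophages (43.1% of all genes). It gave 5 in choroid plexus macrophages (23.8%), 6 in dura MHC II-high macrophages (28%) and 8 in dura MHC II-low macrophages (25.7%). In dura MHC II-high macrophages Ctsk and Ctsz were added. Microglia replicate 3 was the lowest of the 4 microglia libraries for Ctsa, Ctsb, Ctsc, Ctsd, Ctsh, Ctss and Ctsz. Whether the epithelial transcripts in it bear on this was not tested.

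Ctsd (ENSMUSG00000007891, chr7:142375911-142388038, minus strand) encodes the main aspartic endopeptidase of the lysosome. It had 4678, 4656, 4561 and 4723 CPM in peritoneal macrophages, 2061, 2011, 2227 and 1716 CPM in choroid plexus macrophages, 2073, 2090.5, 1863 and 1838 CPM in dura MHC II-high macrophages, 4162, 4867, 4055 and 3819 CPM in dura MHC II-low macrophages, and 19342, 15304, 18482 and 16630.5 CPM in microglia. The microglia libraries lay far above all others, the peritoneal and dura MHC II-low libraries overlapped in the middle, and the choroid plexus and dura MHC II-high libraries overlapped at the bottom. Ctsd was 3.75-fold lower in peritoneal macrophages than in microglia (log2 -1.91 ± 0.11, adjusted p = 2.74e-12), 8.70-fold lower in choroid plexus macrophages (-3.12 ± 0.11), 8.87-fold lower in dura MHC II-high macrophages (-3.15 ± 0.11) and 4.13-fold lower in dura MHC II-low macrophages (-2.05 ± 0.11). Leaving out microglia replicate 3 gave -1.999, -3.25, -3.27 and -2.17 for the same 4 comparisons.

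Within the dura, Ctsd was lower in MHC II-high than in MHC II-low macrophages by 1.10 ± 0.10 on the log2 scale (adjusted p = 1.17e-06), with no overlap of libraries. It was also lower in choroid plexus than in dura MHC II-low macrophages (log2 -1.08 ± 0.10, adjusted p = 2.35e-07), and this call was lost without dura MHC II-low replicate 2, at -0.999 and thus under 2-fold. In peritoneal macrophages it was higher than in choroid plexus macrophages (1.22 ± 0.10) and than in dura MHC II-high macrophages (1.24 ± 0.10). Peritoneal and dura MHC II-low macrophages did not pass the test (0.14 ± 0.10, adjusted p = 0.256). In the GENCODE M21 annotation, 34.4% of the exon length of Ctsd is shared with Gm49369, a protein-coding gene on the same strand whose symbol is not among those counted. How reads in the shared exons were assigned is not known, so the level of Ctsd is uncertain, and its differences assume that this was the same in every library.

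Ctsl and Ctsf encode cysteine endopeptidases of the papain family. Cathepsin L is a broad lysosomal protease that also cleaves the invariant chain in thymic epithelium, and cathepsin F has been linked to invariant chain cleavage in macrophages. Ctsl (ENSMUSG00000021477, chr13:64359337-64370890, minus strand) had 314, 261, 334 and 212 CPM in peritoneal macrophages, 274, 292, 301 and 355 CPM in choroid plexus macrophages, 228, 263, 283 and 227 CPM in dura MHC II-high macrophages, 466, 503, 593 and 477 CPM in dura MHC II-low macrophages, and 1213, 1133, 1205 and 1100.3 CPM in microglia. The microglia libraries stood alone at the top, the dura MHC II-low libraries were second without overlap, and the other 3 populations overlapped. Its log2 fold change against microglia was -2.05 ± 0.13 in peritoneal macrophages, -1.93 ± 0.13 in choroid plexus macrophages, -2.22 ± 0.13 in dura MHC II-high macrophages and -1.19 ± 0.13 in dura MHC II-low macrophages (largest adjusted p = 1.58e-07). With microglia replicate 3 left out the values were -2.10, -2.01, -2.29 and -1.27. Dura MHC II-high macrophages had less Ctsl than dura MHC II-low macrophages (-1.03 ± 0.13, adjusted p = 2.02e-05). That call stood close to 2-fold and was lost without dura MHC II-high replicate 1 (-0.97), dura MHC II-high replicate 4 (-0.99) or dura MHC II-low replicate 3 (-0.95). An antisense gene, Gm47123, covers 26.8% of the exon length of Ctsl, and a processed pseudogene on the same strand, Gm49230, covers 6.09%. Neither symbol is among those counted. Since the strand setting is not given, reads of Ctsl and Gm47123 cannot be told apart, and strand would not separate those of Gm49230, so the level of Ctsl is uncertain.

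Ctsf (ENSMUSG00000083282, chr19:4855130-4860918, plus strand) was far less abundant. It had 37.7, 66.2, 43.0 and 44.0 CPM in peritoneal macrophages, 142, 152, 157 and 140.1 CPM in choroid plexus macrophages, 89.4, 100.7, 121 and 82.3 CPM in dura MHC II-high macrophages, 141, 184, 154 and 142 CPM in dura MHC II-low macrophages, and 434, 361, 403 and 351 CPM in microglia. The order ran from microglia down through overlapping dura MHC II-low and choroid plexus libraries to dura MHC II-high and, lowest, peritoneal libraries. Peritoneal macrophages had 8.12-fold less Ctsf than microglia (log2 -3.02 ± 0.16, adjusted p = 1.23e-12). The other populations against microglia gave -1.39 ± 0.15 in choroid plexus macrophages, -1.98 ± 0.15 in dura MHC II-high macrophages and -1.32 ± 0.15 in dura MHC II-low macrophages. With microglia replicate 3 left out the 4 values were -3.09, -1.49, -2.08 and -1.42. Peritoneal against dura MHC II-high macrophages gave -1.04 ± 0.15, close to 2-fold.

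**Figure D3:**
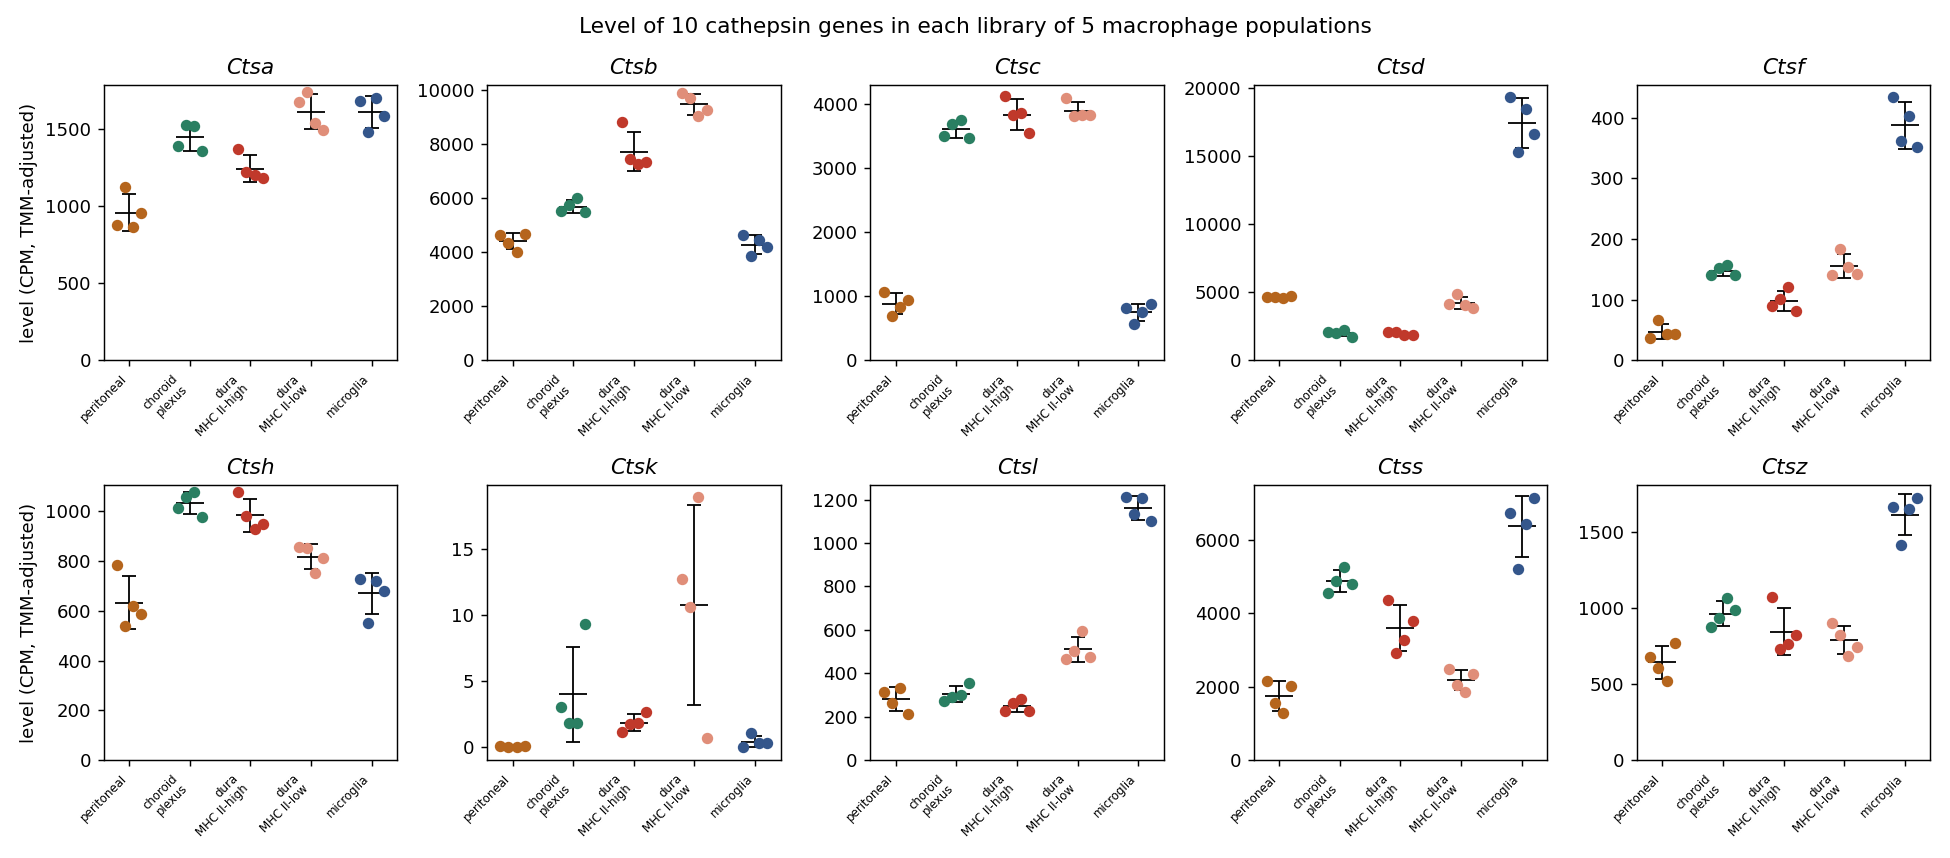
Each panel shows 1 gene, with its level in CPM on a linear vertical axis and the 5 populations on the horizontal axis. Points are single libraries, and bars give the mean and SD of 4 libraries. Ctsd, Ctsf and Ctsl stand highest in microglia, Ctsc lies at 3475–4124 CPM in the 3 border populations and at 574–1074 CPM elsewhere, and Ctsk varies most within a population.

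Ctsd, Ctsf and Ctsl share the high level in microglia. All 3 were also lower in dura MHC II-high than in dura MHC II-low macrophages, Ctsf by less than 2-fold (-0.66 ± 0.15). In peritoneal against choroid plexus macrophages they parted, with Ctsd called higher, Ctsf lower and Ctsl not at all. As these 3 genes were called against every other population, their promoters are shown at the sites of the E-box core CACGTG, which MiT/TFE factors such as TFEB and many other factors can bind. The windows are the 250 bases before RefSeq gene starts on GRCm38.p6. Of the 10 cathepsins, 8 have such a window in the table used, 9 windows in all, and Ctsb and Ctsh do not. CACGTG reads the same on both strands. It was present in a window of 4 of the 8 genes, Ctsa, Ctsd, Ctsf and Ctsl. Counted by window and not by gene, it was in 6.02% of 32851 windows of all genes. The motif was chosen with the expression values known, and a match is only a description of these letters. Each 30-base stretch is written 5′ to 3′ on the strand of the gene, with the motif in capitals. The distance upstream of the start that follows the window is 245 and 98 bases for the 2 sites in Ctsd, 236 for Ctsl, 79 for Ctsf and 12 for Ctsa. The Ctsa site is in its window at chr2:164833523-164833772, downstream of the annotated gene start at chr2:164832873. The Ctsa window before that gene start, chr2:164832622-164832871, lacks the motif.
Ctsd at chr7:142388048-142388077, minus strand: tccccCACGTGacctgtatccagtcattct
Ctsd at chr7:142387908-142387937, minus strand: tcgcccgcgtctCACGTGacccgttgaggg
Ctsl at chr13:64370739-64370768, minus strand: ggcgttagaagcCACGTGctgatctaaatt
Ctsf at chr19:4855074-4855103, plus strand: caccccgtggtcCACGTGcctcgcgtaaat
Ctsa at chr2:164833749-164833778, plus strand: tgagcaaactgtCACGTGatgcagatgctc

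The flanks differ from one site to the next. The stretch in Ctsl, that in Ctsa and the nearer one in Ctsd overlap annotated exons of the same gene, at least in part. Ctsa holds the motif only in its window at the later start, and was called in no comparison at 2-fold. The windows of Ctsc, Ctsk, Ctss and Ctsz lack it. Of the 4 MiT/TFE genes, Tfeb averaged 39.99 ± 13.1 CPM in peritoneal macrophages, 103 ± 10.6 in choroid plexus macrophages, 71.2 ± 4.1 in dura MHC II-high macrophages, 79.1 ± 7.7 in dura MHC II-low macrophages and 115 ± 6.6 in microglia (SD, n = 4 each). In peritoneal macrophages against microglia Tfeb and Tfe3 were called lower and Tfec higher, beside 44.6% of all genes called. The median of the 4 was -0.61, and that of all genes -0.11. In the other 3 comparisons with microglia Tfec alone was called, lower in microglia each time. All genes called there were 19.2% in choroid plexus, 27.9% in dura MHC II-high and 26.5% in dura MHC II-low macrophages. The same genes of this list were called without microglia replicate 3. In that fit 43.1% of all genes were called in peritoneal and 23.8% in choroid plexus macrophages. Dura MHC II-high macrophages had 28% and dura MHC II-low macrophages 25.7%.

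Ctss (ENSMUSG00000038642, chr3:95526786-95556403, plus strand) encodes a cysteine endopeptidase that stays active at neutral pH and cuts the invariant chain. It had 2162, 1567, 1283 and 2009 CPM in peritoneal macrophages, 4558, 4879, 5276 and 4797 CPM in choroid plexus macrophages, 4374, 2930.2, 3284 and 3784 CPM in dura MHC II-high macrophages, 2477, 2042, 1868 and 2346 CPM in dura MHC II-low macrophages, and 6731, 5206, 6446 and 7131 CPM in microglia. Peritoneal and dura MHC II-low libraries overlapped at the bottom, and microglia overlapped choroid plexus macrophages only through replicate 3. Ctss was lower than in microglia by a log2 of -1.86 ± 0.16 in peritoneal macrophages (adjusted p = 2.35e-09) and of -1.55 ± 0.16 in dura MHC II-low macrophages (adjusted p = 7.66e-08). Dura MHC II-high macrophages were at -0.83 ± 0.16 against microglia (adjusted p = 0.000153) and choroid plexus macrophages at -0.39 ± 0.15 (adjusted p = 0.05005), neither of which reached 2-fold. Without microglia replicate 3 the 4 values, in the same order, were -1.98, -1.70, -0.98 and -0.54.

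Among the other populations, Ctss was higher in choroid plexus than in dura MHC II-low macrophages (1.16 ± 0.16, adjusted p = 1.50e-05). It was lower in peritoneal than in choroid plexus macrophages (-1.47 ± 0.16, adjusted p = 1.01e-07). Against dura MHC II-high macrophages the peritoneal value was -1.03 ± 0.16, and this call was lost without peritoneal replicate 2 (-0.98), peritoneal replicate 3 (-0.91), dura MHC II-high replicate 1 (-0.90) or dura MHC II-low replicate 4 (-0.998), with RLE scaling (-0.99) and in DESeq2 (-0.99). Without peritoneal replicate 3, where Ctsf fell under 2-fold as well, that comparison had 3 cathepsins called in place of 5. The 2 dura populations differed by 0.72 ± 0.16 (adjusted p = 0.00422), higher in MHC II-high but under 2-fold.

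The level of Ctss and that of the invariant chain gene Cd74 did not follow one order over the populations. Cd74 averaged 1544 ± 1083 CPM in peritoneal macrophages, 30278 ± 4511 in choroid plexus macrophages, 30883 ± 1767 in dura MHC II-high macrophages, 1582 ± 49.5 in dura MHC II-low macrophages and 108 ± 25.3 in microglia (SD, n = 4 each). Microglia thus had the most Ctss and the least Cd74. Choroid plexus macrophages against microglia differed by a log2 of 8.13 ± 0.56 in Cd74 (adjusted p = 1.90e-09), against -0.39 in Ctss. In dura MHC II-high against dura MHC II-low macrophages all 4 class II loading genes listed (Cd74, H2-DMa, H2-DMb1 and Ciita) were called higher. That comparison called 3.88% of all genes. The median log2 fold change of the 4 was 3.51, where Ctss was at 0.72. These 2 populations are named for their MHC class II level, so the class II difference is not a finding apart from the grouping. Among the 4 peritoneal libraries, Cd74 ranged over 268–2619 CPM and Ctss over 1283–2162 CPM, with replicate 3 the lowest in both.

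In the window before the start of Ctss the letters GAAA repeated after a gap of any 2 bases, the core of the interferon-stimulated response element, begin 21 bases upstream. Searched on both strands, this motif was in 2.98% of the 32851 windows and in no other window of these cathepsins. It too was chosen with the values known. The stretch is printed with the motif in capitals.
Ctss at chr3:95526755-95526784, plus strand: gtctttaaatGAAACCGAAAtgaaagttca

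**Figure D4:**
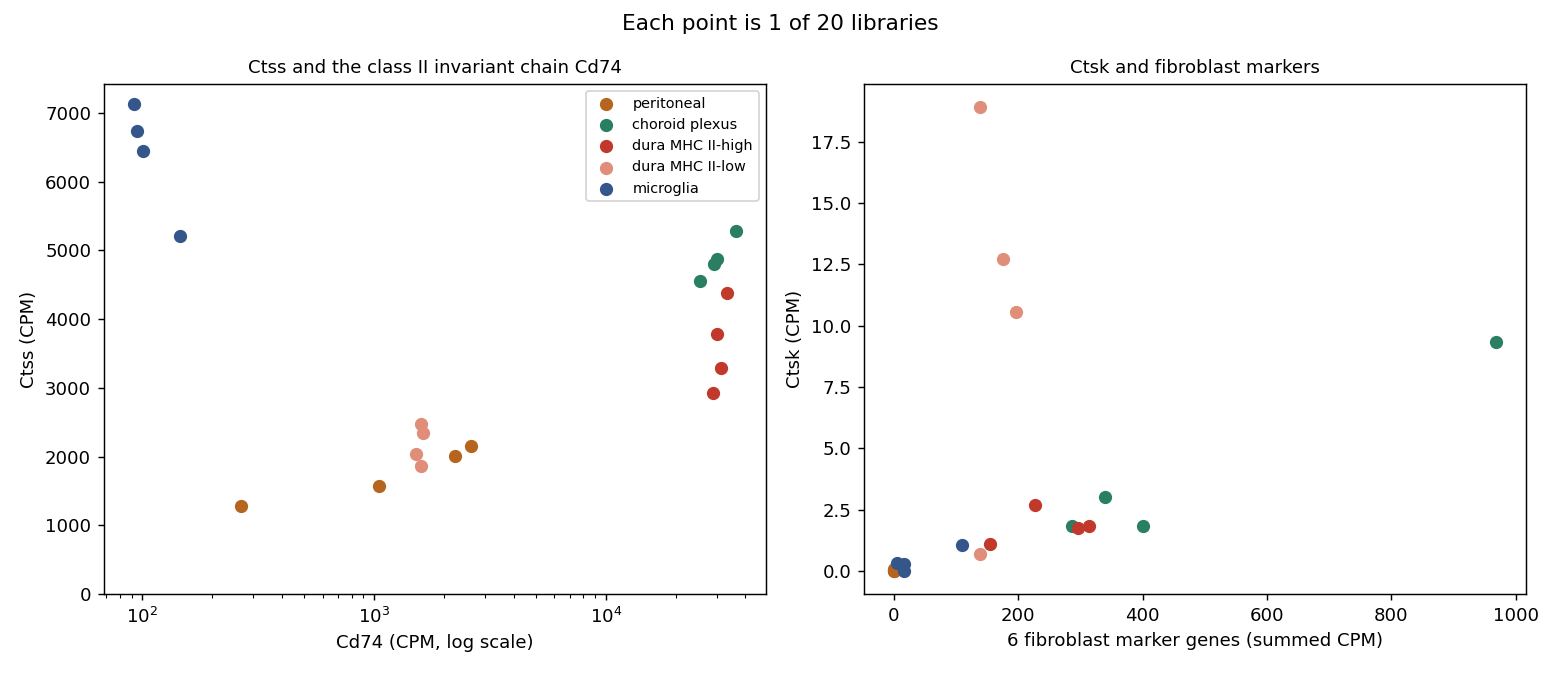
The left panel plots Ctss (vertical axis, CPM) on Cd74 (horizontal axis, CPM on a log scale), and the right panel plots Ctsk (CPM) on the summed CPM of 6 fibroblast markers, with 1 point per library. Microglia combine 5206–7131 CPM of Ctss with 92.0–146 CPM of Cd74, and 3 dura MHC II-low libraries have 10.6–18.9 CPM of Ctsk at fibroblast sums of 138–197 CPM.

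Ctsb (ENSMUSG00000021939, chr14:63122462-63145923, plus strand) encodes a cysteine protease with endopeptidase and carboxydipeptidase activity. It had 4625, 4353, 4022 and 4684 CPM in peritoneal macrophages, 5519.6, 5752, 6014 and 5476 CPM in choroid plexus macrophages, 8813, 7444.5, 7273 and 7358 CPM in dura MHC II-high macrophages, 9890.5, 9720.2, 9054 and 9276 CPM in dura MHC II-low macrophages, and 4647, 3849.96, 4451 and 4191 CPM in microglia. Dura libraries were highest, choroid plexus libraries came next, and peritoneal and microglia libraries overlapped at the bottom. Peritoneal macrophages had 2.15-fold less than dura MHC II-low macrophages (log2 -1.10 ± 0.09, adjusted p = 2.44e-09), and dura MHC II-low macrophages 2.21-fold more than microglia (1.15 ± 0.09, adjusted p = 2.07e-09, and 1.03 without microglia replicate 3). Dura MHC II-high macrophages were 0.85 ± 0.09 above microglia, short of 2-fold, and 0.73 without microglia replicate 3. Peritoneal macrophages against microglia came to 0.05 ± 0.09 (adjusted p = 0.670), and to -0.04 without microglia replicate 3. Of the exon length of Ctsb, 12.8% is shared with Fdft1 on the other strand, which averaged at most 18.9 CPM in any population.

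Ctsk (ENSMUSG00000028111, chr3:95499256-95509362, plus strand), the collagen-degrading cathepsin best known from osteoclasts and also made by fibroblasts, lies just before Ctss on the same strand. It was scarce. Peritoneal macrophages had 2, 0, 0 and 1 counts. The levels were 3.03, 1.85, 1.83 and 9.34 CPM in choroid plexus macrophages, 1.11, 1.74, 1.83 and 2.67 CPM in dura MHC II-high macrophages, 12.7, 10.6, 18.9 and 0.705 CPM in dura MHC II-low macrophages, and 0, 1.05, 0.289 and 0.330 CPM in microglia. Of the dura MHC II-low libraries, 3 were above all others and replicate 4 was below all dura MHC II-high libraries. The ratio of summed levels over peritoneal macrophages was 149 in choroid plexus macrophages (95% counting interval 50.3–726), 65.3 in dura MHC II-high macrophages (22.0–320), 383 in dura MHC II-low macrophages (131–1858) and 15.2 in microglia (4.66–78.1). Single libraries carried much of this. Choroid plexus replicate 4 held 147 of 243 counts, and without it the ratio was 80.04 (26.6–395). Microglia replicate 3 held 17 of 27 counts, and without it the ratio was 7.49 (1.93–42.4). These intervals cover counting error only.

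Ctsk was higher than in microglia in choroid plexus macrophages (log2 3.25 ± 0.90, adjusted p = 0.00658) and in dura MHC II-low macrophages (4.66 ± 0.93, adjusted p = 0.000370). In dura MHC II-high macrophages the value was 2.12 ± 0.88 (adjusted p = 0.0502). Without choroid plexus replicate 4, Ctsk in choroid plexus macrophages against microglia was 2.41 (adjusted p = 0.0382), and in peritoneal against choroid plexus macrophages it stayed called (adjusted p = 0.000132). Without microglia replicate 3, the microglia library with the most Ctsk, the 3 values were 4.19, 5.60 and 3.05, the last then called (adjusted p = 0.0180), and the call for peritoneal macrophages against microglia (adjusted p = 0.0139) was lost (adjusted p = 0.118). Dura MHC II-high macrophages against microglia also became a call without choroid plexus replicate 4 (2.12, adjusted p = 0.0388), without dura MHC II-low replicate 4 (2.07, adjusted p = 0.0209) and in DESeq2 (2.06, adjusted p = 0.0281). Dura MHC II-high against dura MHC II-low macrophages gave -2.54 ± 0.81 (adjusted p = 0.0503) and became a call without dura MHC II-low replicate 4 (-2.93, adjusted p = 0.0107). The same call appeared without peritoneal replicate 3 (adjusted p = 0.0499), choroid plexus replicate 4 (0.0406), microglia replicate 1 (0.0303) or microglia replicate 3 (0.0277), and in DESeq2 (adjusted p = 0.0119), while the value itself stayed between -2.54 and -2.55. Choroid plexus replicate 4, with the most Ctsk of its group, had the highest fibroblast sum at 968 CPM and 207 CPM of Col1a1. Microglia replicate 3 had a fibroblast sum of 110.01 CPM and 19.2 CPM of Col1a1, against sums of 4.96–16.1 CPM and at most 0.405 CPM of Col1a1 in the other microglia libraries. In peritoneal libraries the fibroblast sum was at most 0.864 CPM. Acp5 is a gene of osteoclasts and some macrophages. Dura MHC II-low replicate 4 had 8.14 CPM of it, against 28.6–41.0 CPM in the other dura MHC II-low libraries. Its 5 osteoclast markers summed to 14.6 CPM against 34.3–49.4 CPM. Acp5 made up most of these sums, and 3 of the 5 markers averaged under 1 CPM in this population. The fibroblast sums of the 4 dura MHC II-low libraries, 138–197 CPM, did not part replicate 4 at 139 CPM from the others. The part of fibroblasts or osteoclasts in the Ctsk level was not tested.

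The exopeptidases Ctsc, Ctsh and Ctsz fell into different patterns. Ctsc (ENSMUSG00000030560, chr7:88278085-88310888, plus strand) encodes dipeptidyl peptidase I, which activates granule serine proteases. It had 1074, 693, 840.4 and 938 CPM in peritoneal macrophages, 3509.7, 3692, 3753 and 3475 CPM in choroid plexus macrophages, 4124, 3829.96, 3859 and 3546 CPM in dura MHC II-high macrophages, 4098, 3823, 3839.55 and 3837 CPM in dura MHC II-low macrophages, and 818, 574, 753 and 877 CPM in microglia. Border libraries lay at 3475 CPM or more and the libraries of both other populations at 1074 CPM or less. Ctsc was lower in peritoneal macrophages than in choroid plexus macrophages by a log2 of -2.03 ± 0.13, than in dura MHC II-high macrophages by -2.12 ± 0.13 and than in dura MHC II-low macrophages by -2.14 ± 0.13 (largest adjusted p = 4.55e-11). It was higher than in microglia by 2.26 ± 0.13 in choroid plexus macrophages, 2.35 ± 0.13 in dura MHC II-high macrophages and 2.37 ± 0.13 in dura MHC II-low macrophages (largest adjusted p = 2.14e-11). Without microglia replicate 3 these were 2.08, 2.17 and 2.19. No pair among the border populations passed the test, and peritoneal macrophages against microglia gave 0.23 ± 0.13 (adjusted p = 0.107). No annotated exon of another gene overlaps Ctsc.

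Ctsz (ENSMUSG00000016256, chr2:174427493-174439039, minus strand) encodes cathepsin X, a carboxypeptidase. It ranged over 517–771 CPM in peritoneal macrophages, 873–1062 CPM in choroid plexus macrophages, 729–1069 CPM in dura MHC II-high macrophages, 687–904 CPM in dura MHC II-low macrophages and 1414–1720.1 CPM in microglia. The microglia libraries lay above all others. Only 2 of the 4 comparisons with microglia reached 2-fold, at -1.33 ± 0.13 in peritoneal macrophages (adjusted p = 3.05e-08) and -1.03 ± 0.13 in dura MHC II-low macrophages (adjusted p = 2.19e-06). The second call was lost without dura MHC II-low replicate 3 (-0.97). Choroid plexus macrophages were at -0.74 ± 0.13 and dura MHC II-high macrophages at -0.93 ± 0.13, which became a call without dura MHC II-high replicate 1 (-1.12), without microglia replicate 3 (-1.06) and in DESeq2 (-1.02). Without microglia replicate 3 the 4 values, from peritoneal, choroid plexus, dura MHC II-high and dura MHC II-low macrophages, were -1.42, -0.87, -1.06 and -1.16.

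Ctsh (ENSMUSG00000032359, chr9:90054152-90076089, plus strand), an aminopeptidase, was called in no comparison, like Ctsa. It ranged over 539–786 CPM in peritoneal macrophages, 978–1079 CPM in choroid plexus macrophages, 927–1075 CPM in dura MHC II-high macrophages, 749.9–857 CPM in dura MHC II-low macrophages and 549.9–729 CPM in microglia. The widest gap, peritoneal against choroid plexus macrophages, was -0.70 ± 0.11 (adjusted p = 1.55e-05), less than 2-fold. Choroid plexus macrophages were 0.62 ± 0.11 above microglia, and 0.47 without microglia replicate 3.

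Ctsa (ENSMUSG00000017760, chr2:164832873-164841032, plus strand) encodes the carboxypeptidase that also shields beta-galactosidase (Glb1) and neuraminidase (Neu1) in a lysosomal complex. Its range was 866–1129 CPM in peritoneal macrophages, 1357–1529.7 CPM in choroid plexus macrophages, 1182–1372 CPM in dura MHC II-high macrophages, 1498–1743 CPM in dura MHC II-low macrophages and 1481–1702 CPM in microglia. Peritoneal libraries were below all others. The largest gaps, to dura MHC II-low macrophages (-0.75 ± 0.10) and to microglia (-0.75 ± 0.10), were 1.68-fold. Without microglia replicate 3 the gap of peritoneal macrophages to microglia was -0.82. Choroid plexus macrophages were at -0.15 ± 0.09 against microglia (adjusted p = 0.214, edgeR). That value was -0.26 (adjusted p = 0.0378, edgeR) without microglia replicate 3, still under 2-fold. Glb1 went the other way and was called higher in peritoneal macrophages, at 328 ± 67.7 CPM, than in each of the other populations, whose means were 95.8–118 CPM, while Neu1 was not called in any comparison. Exons of Pltp and Neurl2 on the other strand cover 10.5% and 6.87% of the exon length of Ctsa. Pltp averaged 1018 CPM in peritoneal macrophages, 387 CPM in choroid plexus macrophages, 1143 CPM in dura MHC II-high macrophages, 993 CPM in dura MHC II-low macrophages and 58.5 CPM in microglia, an order unlike that of Ctsa.

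Across the 20 libraries the cathepsins did not vary as 1 block. Pearson's r of log2(CPM + 1) was highest for Ctss with Ctsz (0.89), Ctsd with Ctsl (0.88), Ctsa with Ctsf (0.87), and Ctsb with Ctsc (0.86). It was lowest for Ctsc with Ctsd (-0.79) and Ctsd with Ctsh (-0.70). These values mostly describe differences between the 5 populations, 4 libraries each, and no p is attached. Among 8412 other genes, the closest pattern to Ctsd was that of Syngr1 (0.96), to Ctsl those of Sall1, Adgrg1 and Slc2a5 (0.96 each), and to Ctsf those of Saraf, Taz and Serpine2 (0.98 each). Ctsc was closest to Ms4a7 (0.99), Mrc1 (0.99) and Nrg2 (0.98), and Ctsb to Pla2g2d (0.97), Susd1 (0.97) and Il10 (0.96). The closest to Ctss were Irf5, Rps6ka1 and Mgat5 (0.96 each), to Ctsz Lpcat2 (0.96), to Ctsa Cln3 (0.95), to Ctsh Plekhf2 (0.92) and to Ctsk Ppp2r5b (0.83).

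The other cathepsin genes were largely silent. Of 13 listed, 2 passed the filter on low counts. Ctse, an aspartic protease of endosomes, was called in 9 of 10 comparisons and averaged 2.70 ± 1.18 CPM in peritoneal macrophages, 21.4 ± 3.1 in choroid plexus macrophages, 7.30 ± 1.24 in dura MHC II-high macrophages, 3.15 ± 1.39 in dura MHC II-low macrophages and 0.711 ± 0.089 in microglia (SD, n = 4 each). Choroid plexus macrophages had more of it than each other population. The shares of all genes called in each comparison are given above. Without microglia replicate 3, Ctse stayed called higher in all 4 comparisons with microglia. Ctsw, with 59 counts over all libraries, then also passed the filter. It was called lower than in microglia in peritoneal (-5.36), choroid plexus (-3.41) and dura MHC II-high macrophages (-6.77). In dura MHC II-low macrophages it was not called (-1.57). In that fit 43.1%, 23.8%, 28% and 25.7% of all genes were called, in the same order. Microglia, which had the most Ctsd, had the least Ctse, at 4.90 ± 0.38 on the log2 scale below choroid plexus macrophages (adjusted p = 1.60e-09). Ctso was called in none, at means of 135–202 CPM.

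Of 16 listed inhibitors of cathepsins 8 passed the filter. Cst3, cystatin C, a secreted inhibitor of cysteine cathepsins, averaged 1574 ± 28.2 CPM in peritoneal macrophages, 4854 ± 476 in choroid plexus macrophages, 3005 ± 130.3 in dura MHC II-high macrophages, 3196 ± 101.3 in dura MHC II-low macrophages and 18624 ± 1574 in microglia (SD, n = 4 each). It was lower than in microglia in all 4 comparisons, by a log2 of -3.56 ± 0.10 in peritoneal macrophages and -1.94 ± 0.09 in choroid plexus macrophages, or -3.65 and -2.05 without microglia replicate 3. Serpinb1a, an inhibitor of neutrophil serine proteases including cathepsin G, averaged 438 ± 121 CPM in peritoneal macrophages, against means of 0.545–3.05 CPM in the other populations. Against microglia, 4 of the 8 were called higher and 3 lower in peritoneal macrophages (median 1.31, beside -0.11 and 44.6% called for all genes). In choroid plexus macrophages 3 were higher and 2 lower (median 0.41, beside 0.09 and 19.2% of all genes), and in dura MHC II-low macrophages 4 were higher and 2 lower (median 1.35, beside 0.02 and 26.5% of all genes). In dura MHC II-high macrophages against microglia all 8 were called, Cst3 and Cst7 lower and the other 6 higher, with a median of 2.05, beside 0.02 and 27.9% called for all genes. With microglia replicate 3 left out the counts were 3 higher and 3 lower in peritoneal macrophages (43.1% of all genes called). In choroid plexus macrophages they were 3 and 2 (23.8%). In dura MHC II-high macrophages they were 6 and 2 (28%), and in dura MHC II-low macrophages 5 and 2 (25.7%). Between the 2 dura populations none of the 8 was called by edgeR (median 0.01, beside 0.02 and 3.88% called for all genes). With so small a share of all genes called, this count does not set the inhibitors apart.

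Legumain (Lgmn), the asparaginyl endopeptidase that processes several cathepsins, averaged 435 ± 57.9 CPM in peritoneal macrophages, 2354 ± 67.5 in choroid plexus macrophages, 1646 ± 211 in dura MHC II-high macrophages, 2040.0 ± 95.9 in dura MHC II-low macrophages and 4316 ± 497 in microglia (SD, n = 4 each). It was lower in peritoneal macrophages than in each other population, at -3.31 ± 0.12 against microglia (adjusted p = 3.45e-15), or -3.42 without microglia replicate 3. Of the 8 peptidases and activators listed with it, 2 were called lower and 3 higher in peritoneal macrophages against microglia (median 0.78, beside -0.11 and 44.6% called for all genes). Scpep1, Cpq and Napsa were called higher in each of the 4 comparisons with microglia. Beside the peritoneal counts, there were 3 higher and 0 lower in choroid plexus macrophages (median 0.36, beside 0.09 and 19.2% of all genes). Dura MHC II-high macrophages had 3 higher and 1 lower (median 0.54, beside 0.02 and 27.9% of all genes), and dura MHC II-low macrophages, with Dpp7, 4 higher and 1 lower (median 0.79, beside 0.02 and 26.5% of all genes). In the fit without microglia replicate 3, choroid plexus macrophages had 2 higher and 1 lower (23.8% of all genes called). There Scpep1 was no longer called and Lgmn was called lower (-1.01). The other 3 counts were the same. Beside them, 43.1% of all genes were called in peritoneal, 28% in dura MHC II-high and 25.7% in dura MHC II-low macrophages. Scpep1, a serine carboxypeptidase, averaged 468 CPM in peritoneal macrophages, 338 in choroid plexus macrophages, 387 in dura MHC II-high macrophages, 383 in dura MHC II-low macrophages and 164 in microglia.

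Among 8 genes of lysosomal sorting, Sort1, encoding sortilin, averaged 174 ± 41.5 CPM in peritoneal macrophages, 46.7 ± 7.2 in choroid plexus macrophages, 26.2 ± 5.6 in dura MHC II-high macrophages, 63.3 ± 8.8 in dura MHC II-low macrophages and 299.98 ± 81.4 in microglia (SD, n = 4 each). Within the dura it was lower in MHC II-high than in MHC II-low macrophages (-1.27 ± 0.20, adjusted p = 0.000300), while Sorl1, a related receptor, was higher (2.08 ± 0.26, adjusted p = 2.63e-05). Against microglia, the sorting genes gave 1 higher and 2 lower in peritoneal macrophages (median -0.16, beside -0.11 and 44.6% of all genes called) and 2 higher and 1 lower in choroid plexus macrophages (median -0.03, beside 0.09 and 19.2%). In dura MHC II-high macrophages 2 were higher and 1 lower (median -0.41, beside 0.02 and 27.9%), and dura MHC II-low macrophages 0 higher and 2 lower (median -0.47, beside 0.02 and 26.5%). Leaving out microglia replicate 3 made these counts 1 and 2, 1 and 1, 1 and 1, and 0 and 2, in the same order. In that fit 43.1%, 23.8%, 28% and 25.7% of all genes were called, again in this order. The mannose 6-phosphate receptor gene M6pr was called in no comparison, at means of 298–363 CPM.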

How the data were processed

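RNA of 20 libraries was sequenced, 4 in each of 5 macrophage populations. The deposited values are counts of reads per gene symbol, made by the authors. The submitters' processing notes name mm10 and TopHat2 2.1.0, SAMtools 0.1.18, Trimmomatic 0.38 and FastQC 0.11.4. Which program and annotation gave the counts, and whether strand was used, is not given in the sources used here. Of all reads listed, 5.67–13.1% had no feature and 0.836–1.51% were ambiguous, and these lines were left out.

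A single edgeR 4.0.16 model (R 4.3.3) covered the 20 libraries, with filterByExpr, TMM factors of 0.923–1.05 and the robust quasi-likelihood F test on 15 residual degrees of freedom. P-values were adjusted over 13960 genes per comparison by the Benjamini-Hochberg method. A standard error is the log2 fold change over the square root of F. DESeq2 1.42.0, other scalings and filters, and leaving out each library were alternatives. The fit was tested on simulated data. The floor of 3 counts is 0.0964–0.222 CPM per library. Exon lengths, positions and overlaps came from GENCODE M21, which matched 23376 of 24421 symbols, and promoters from RefSeq on GRCm38.p6. From each list at most 4 genes are named, those with the highest level among the called ones, and for each cathepsin up to 3 genes of 10 CPM or more with the most similar pattern. Cst7, Cpq, Napsa, Dpp7, Ctso, Neu1 and M6pr fall outside that rule and were named after their values were seen. The cathepsins, lists and markers were chosen with earlier results of these data known. Alveolar macrophages and Kupffer cells were not analysed here.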

Additional observations from a re-analysis of the deposited data

Results flagged for a closer look

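Within groups of 4 libraries, 3 of 55 groups tested had 1 library separated from the rest by a gap above Dixon's 95% critical value for 4 samples. Chance flags about 1 in 20 groups.

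Ctsb was 8813 CPM in dura MHC II-high replicate 1, and the next library of that group had 7444.5 CPM. Ctsc was 4098 CPM in dura MHC II-low replicate 1, and the next library had 3839.55 CPM. Ctsk was 9.34 CPM in choroid plexus replicate 4, and the next library had 3.03 CPM. Choroid plexus replicate 4 also had the highest fibroblast marker sum, 968 CPM, and the part of fibroblasts in its Ctsk level was not tested.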

How the results depend on the processing

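With no minimum fold, the counts of called cathepsins in peritoneal macrophages were 9 against choroid plexus, 9 against dura MHC II-high and 7 against dura MHC II-low macrophages. Choroid plexus macrophages gave 3 against dura MHC II-high, 5 against dura MHC II-low and 8 against microglia. There were 6 between the dura populations and 9 for dura MHC II-high macrophages against microglia. The shares of all genes for these comparisons are given above. Cathepsins higher in 1 population than in all others then numbered 5, and the share of all genes that met this rule was not computed. DESeq2, RLE factors, other filters, scaling without the cathepsins, fits of 8 libraries and joint adjustment kept every count of called cathepsins within 1.5 times. Leaving out 1 library gave 3–5 for peritoneal against dura MHC II-high, 1–2 for choroid plexus against dura MHC II-low and 1–3 between the dura populations. Beyond single libraries, the sign turned in 2 uncalled comparisons. Ctsa in dura MHC II-low macrophages against microglia was 0.0013, and -0.0780 with RLE factors, -0.0777 with DESeq2, -0.0464 without the cathepsins in the scaling, -0.0246 with no filter, -0.0688 with a 10 CPM filter and -0.0419 with the replicate block. Ctsb in peritoneal macrophages against microglia was 0.05, and -0.00334 with RLE factors, -0.00285 with DESeq2 and -0.0227 with the 10 CPM filter. Leaving out 1 library turned the sign of 7 uncalled values, with ranges of -0.106 to 0.0239 for Ctsa and -0.0386 to 0.0891 for Ctsb in the same comparisons, -0.0480 to 0.0120 for Ctsc and -0.0258 to 0.167 for Ctsz between the dura populations, -0.0307 to 0.0999 for Ctsd in choroid plexus against dura MHC II-high, -0.123 to 0.0242 for Ctsf in choroid plexus against dura MHC II-low, and -0.221 to 0.0199 for Ctsl in peritoneal against choroid plexus macrophages. The causes were not tested.

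Correlations of deviations between libraries of different populations with the same replicate number were -0.13 to 0.17 (median 0.03, 36 pairs). With other numbers they were -0.24 to 0.27 (median -0.01, 124 pairs), and 7 of the 20 libraries correlated best with their own number. Whether replicate numbers mark a shared animal or day cannot be told from these values. With the replicate block, 7 cathepsins were called for dura MHC II-low macrophages against microglia in place of 8, since Ctsz came to -0.98 (adjusted p = 1.83e-05, edgeR). Ctsk had 0–502 counts per library, so its values carry the widest counting error of the 10.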
